A study of Mus musculus with 10 samples.

Results

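Accessible chromatin at mitogen withdrawal was compared in neural stem cells that lack p27, an inhibitor of cyclin-dependent kinases and the product of Cdkn1b. The cells were cultured from the subependymal zone (SEZ) of 10-week-old Cdkn1b-null mice (p27KO) on a C57BL/6J background. Proliferating cells (PRO, n = 2 libraries) were neurospheres, with EGF at 20 ng/ml and FGF at 10 ng/ml in the medium. Cells at the onset of differentiation (DIFF, n = 2 libraries) had spent 2 days on Matrigel with FGF and then 24 h without mitogens in 2% serum. The labels give 3 days in vitro for both, while the study names a longer time for PRO in its results. PRO and DIFF therefore differed in substrate and serum as well as in mitogens, and these cannot be told apart. These 4 of the series' 10 libraries, each from 50000 cells, had 6 wild-type counterparts (WT, 3 PRO and 3 DIFF), which were used beside them. The mice lacked p27 in every cell throughout life, so the cultures were also p27-null before withdrawal.

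The regions compared were the merged autosomal peaks of the 4 p27KO lists that held a peak in at least 2 lists. They numbered 78435 of 112916 merged intervals. Each region was scored in each library by its highest fold enrichment, the pileup at the peak's summit over the local background. The regions were then ranked within the library and the ranks were turned into normal scores. A change is the mean normal score at DIFF minus that at PRO, so it is a shift in rank in units of standard deviations and not a log2 fold. Percentiles are positions in the same ranking, from 0 for the weakest to 100 for the strongest. A region is said to have fallen or risen where limma's adjusted p, over all 78435 regions, was under 0.05. No count of reads underlies these values, and a library without a peak was tied with all others lacking one at the bottom of its ranking.

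ATAC-seq marks DNA that a transposase can reach, which includes most active promoters and many distal elements such as enhancers. Promoters are often open in many cell types, whereas distal elements vary more with cell state. EGF and FGF act through receptor tyrosine kinases and the ERK cascade, which induces FOS and JUN proteins. These form the AP-1 factor. Neural stem cells of the SEZ yield neurons, astrocytes and oligodendrocytes when mitogens are removed. p27 accumulates as cells leave the cycle and inhibits cyclin-CDK complexes.

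Sequences of 10 regions are shown first, because a few short motifs recur in the results. All are from GRCm38, plus strand, in lower case, and capitals mark matches to the motifs searched. A match is a description of the letters and not of a bound factor. The windows span 201 bases centred on the summit of the region.
The first 5 regions fell. AP-1 is TGACTCA, written TGAGTCA on the other strand. The TEAD motif is CATTCCA and the E-box shown is CAGCTG. In the 4931440F15Rik window the capitals run through a TEAD match into an overlapping STAT match, TTCNNNGAA.
4931440F15Rik distal region (chr11:29839887-29840087): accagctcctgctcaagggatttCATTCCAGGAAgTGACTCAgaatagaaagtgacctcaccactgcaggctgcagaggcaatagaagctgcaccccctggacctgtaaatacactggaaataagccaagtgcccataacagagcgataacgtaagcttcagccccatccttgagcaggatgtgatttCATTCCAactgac
Il34 distal region (chr8:110815422-110815622): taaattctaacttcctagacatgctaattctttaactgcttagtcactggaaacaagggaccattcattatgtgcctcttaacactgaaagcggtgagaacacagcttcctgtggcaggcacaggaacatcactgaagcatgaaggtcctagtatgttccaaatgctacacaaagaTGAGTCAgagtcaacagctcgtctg
Nfib distal region (chr4:82435806-82436006): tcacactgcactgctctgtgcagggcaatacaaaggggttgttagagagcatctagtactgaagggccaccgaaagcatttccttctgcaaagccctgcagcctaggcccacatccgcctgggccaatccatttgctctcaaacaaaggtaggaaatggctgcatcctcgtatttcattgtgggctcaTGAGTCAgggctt
Phlda1 distal region (chr10:111516371-111516571): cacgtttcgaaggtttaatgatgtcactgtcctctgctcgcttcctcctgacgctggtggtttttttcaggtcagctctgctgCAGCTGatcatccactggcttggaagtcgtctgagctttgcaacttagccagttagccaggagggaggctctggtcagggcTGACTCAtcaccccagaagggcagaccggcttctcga
Tnc distal region (chr4:64083955-64084155): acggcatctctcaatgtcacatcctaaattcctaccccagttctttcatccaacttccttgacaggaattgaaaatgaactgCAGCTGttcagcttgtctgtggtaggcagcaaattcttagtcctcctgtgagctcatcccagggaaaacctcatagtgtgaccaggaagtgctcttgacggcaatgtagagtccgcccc
The last 5 regions rose. The NFI motif, one arm of the factor's palindrome, is TTGGCA, written TGCCAA on the other strand, the homeodomain motif is TAATTA, and the capitals in the Cavin4 window mark an SRF CArG box. The Cep85l window holds TAATTA and the TEAD motif, written TGGAATG on this strand. The Cdk1 window also holds the RFX motif GTTGCC and the E-box CAGATG. The windows are not a sample of the called regions. Most of the first 5 hold AP-1, against 23.9% of distal regions that fell. Most of the last 5 hold the NFI motif, against 33.9% of distal regions that rose.
Cdk1 distal region (chr10:69326629-69326829): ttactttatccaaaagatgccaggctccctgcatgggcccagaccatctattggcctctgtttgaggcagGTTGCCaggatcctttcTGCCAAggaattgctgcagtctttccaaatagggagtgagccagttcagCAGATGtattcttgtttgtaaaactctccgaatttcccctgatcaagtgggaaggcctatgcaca
Maml2 distal region (chr9:13603649-13603849): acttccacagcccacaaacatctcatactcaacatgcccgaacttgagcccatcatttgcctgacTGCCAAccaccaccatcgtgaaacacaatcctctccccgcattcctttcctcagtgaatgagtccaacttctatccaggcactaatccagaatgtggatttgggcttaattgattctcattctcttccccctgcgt
Mki67 distal region (chr7:135802863-135803063): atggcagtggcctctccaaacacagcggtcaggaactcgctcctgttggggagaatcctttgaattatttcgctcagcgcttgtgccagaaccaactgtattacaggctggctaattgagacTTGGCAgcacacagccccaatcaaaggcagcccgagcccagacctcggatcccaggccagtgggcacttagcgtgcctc
Cavin4 distal region (chr4:48842749-48842949): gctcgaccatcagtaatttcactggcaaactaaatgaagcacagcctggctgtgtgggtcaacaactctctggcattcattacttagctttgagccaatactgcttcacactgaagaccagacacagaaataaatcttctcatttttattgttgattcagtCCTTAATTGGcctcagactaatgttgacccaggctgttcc
Cep85l distal region (chr10:53444952-53445152): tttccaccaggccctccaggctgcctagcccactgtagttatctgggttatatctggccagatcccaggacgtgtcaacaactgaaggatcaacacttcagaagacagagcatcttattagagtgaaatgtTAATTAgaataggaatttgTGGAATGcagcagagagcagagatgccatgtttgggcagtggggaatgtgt

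The descriptions of the p27KO libraries name WT cells although title and genotype do not, so Cdkn1b (ENSMUSG00000003031, chr6:134920401-134925513) was examined. None of the 4 p27KO lists held a peak over the gene body, and each of the 6 WT lists held 1, so the peaks followed the titles. PRO lists held 91801 and 83854 peaks and DIFF lists 67589 and 73220, a difference of −17423 (exact permutation test, two-sided, p = 0.333, the smallest that 2 against 2 allows). The covered length was lower at DIFF by the group means, by −6.20 Mb, and the share of peaks at promoters higher by 2.60 percentage points (exact permutation p = 0.333 for each). After each list was cut to its 57000 strongest peaks, the difference in promoter share was −0.283 points. The number of reads per library is unknown and a longer list can come from deeper sequencing, whose part in these differences was not tested.

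At mitogen withdrawal, 5512 regions fell (7.03%) and 5909 rose (7.53%). Lower regions thus made up 48.3% of the calls. No region called had overlapping values in the 2 PRO and 2 DIFF libraries, but neither did 27.7% of all regions on the lower side and 28.7% on the higher side. Counted by presence alone, 10762 regions (13.7%) had a peak in both PRO lists and no DIFF list, and 3272 (4.17%) had the opposite pattern. Of the first set 3140 fell, and of the second 3176 rose. The ties lay at percentiles 3.87 and 5.91 in PRO and 13.2 and 9.97 in DIFF, following list length, so a region lost from DIFF had less room to fall than a region gained had to rise. These sets entered the test through the condition where they had a peak and had to differ. Among the 46175 regions with a peak in all 4 lists, where no tie entered, 1415 fell (3.06%) and 1473 rose (3.19%). Ranked and fitted on their own, 1866 of these fell and 1339 rose (58.2% lower), and with each list cut to its 57000 strongest peaks 5710 regions fell and 5206 rose, so the near balance of falls and rises depended on the regions ranked. The counts leaned on every library. Without PRO 1, PRO 2, DIFF 1 or DIFF 2 they were 3495, 2478, 3155 and 3115 lower and 4159, 4112, 3123 and 3937 higher.

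The regions called in all 4 lists show the size of the shift. Those that fell had a median percentile of 88.9 and 91.1 in the PRO libraries and 55.9 and 55.8 in the DIFF libraries. Those that rose had 36.0 and 33.6 in PRO and 77.3 and 74.4 in DIFF. Strong PRO elements thus moved to the middle of the ranking, and elements from below the middle moved well above it. In bulk cultures, fewer cells with an open element and less opening per cell cannot be told apart.

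The change lay mainly outside promoters. Of 17284 regions within 3 kb of a start site of a protein-coding gene, 282 fell (1.63%) and 448 rose (2.59%). Ranked by −log10 p instead, 434 fell and 409 rose, so the excess of promoter rises turned with the measure ranked. Of 61151 distal regions, 5230 fell (8.55%) and 5461 rose (8.93%). The share called increased with distance. Within 500 bp of a start site 0.925% fell and 1.28% rose, from 500 bp to 3 kb 3.44% and 5.96%, and from 3 to 50 kb 7.85% and 8.12%. Beyond 100 kb the shares were 9.42% and 10.2%. With a peak in all 4 lists the shares were 0.315% and 0.875% within 500 bp and 5.22% and 4.77% beyond 100 kb. The contrast between near and far regions was therefore present also where each library had a peak, and beyond 3 kb falls and rises were similarly frequent. Introns held 2394 falls and 2754 rises among 27674 regions, and intergenic DNA 2678 and 2550 among 31531. Regions that fell had a median width of 472 bp and those that rose 353 bp, against 459 bp for all. Their median GC content was 50.2% and 49.3%, against 51.7%.

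**Figure D1:**
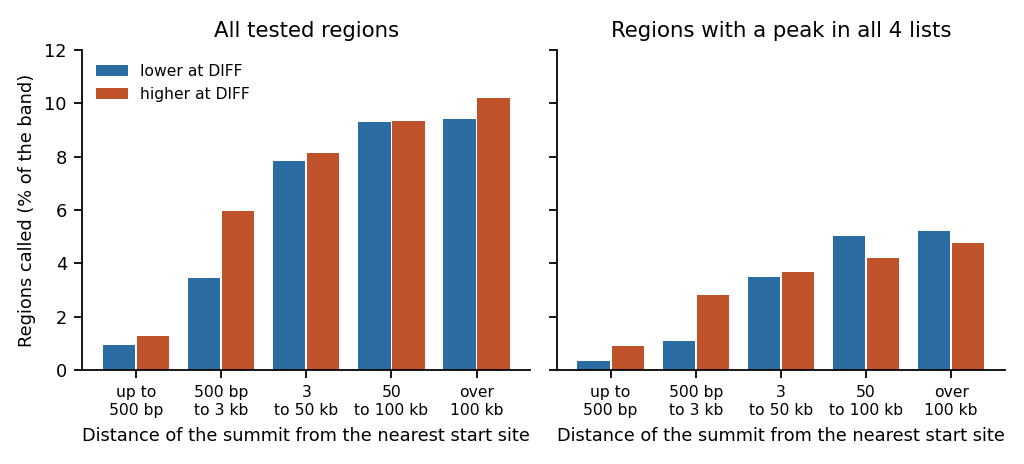
Percent of consensus regions that fell or rose at DIFF against PRO in p27KO cells (y axis) by distance from the nearest protein-coding start site (x axis, 5 bands), for all 78435 regions and for the 46175 with a peak in all 4 lists. Within 500 bp 0.925% fell and 1.28% rose, beyond 100 kb 9.42% and 10.2%, and the step is also present in regions with a peak in each list.

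Distal regions that fell and rose differed in sequence. The 19 motifs were searched on both strands within 100 bases of the summits, and shares are of 61151 distal regions, 5230 that fell and 5461 that rose. The AP-1 motif TGACTCA was held by 7.12% of all, 23.9% of those that fell and 2.01% of those that rose. The E-box CAGCTG, a site type of basic helix-loop-helix proteins, was held by 23.2%, 34.3% and 15.3%, and the E-box CAGATG by 19.8%, 28.1% and 13.6%. The reverse order held for the motif TTGGCA of nuclear factor I proteins, with 21.1% of all, 19.5% of those that fell and 33.9% of those that rose. The homeodomain motif TAATTA followed the same order, with 4.48%, 3.44% and 8.35%. The TEAD motif CATTCCA was held by 5.51% of all, 6.16% of those that fell and 9.41% of those that rose, above the background in both.

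Restricting the motif count to regions with a peak in all 4 lists left AP-1 in 21.2% of falls, 5.42% of all and 1.93% of rises. For CAGCTG these shares were 39.2%, 23.8% and 15.7%, and for the NFI motif 21.9%, 22.1% and 37.5%. Read the other way, 4354 distal regions held AP-1, of which 1251 fell (28.7%) and 110 rose (2.53%). Where AP-1 and CAGCTG occurred together, 388 of 1110 fell (35.0%) and 21 rose. Of 12019 distal regions with the NFI motif and no AP-1, 782 fell (6.51%) and 1815 rose (15.1%). Of 2739 with the homeodomain motif, 180 fell and 456 rose (16.6%). AP-1 thus marked a minority of falls, and most regions with AP-1 did not pass the test. Among promoter regions it was in 19.9% of falls, 2.01% of rises and 2.75% of all. Regions were not independent draws of sequence, so these shares are descriptions without a test.

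**Figure D2:**
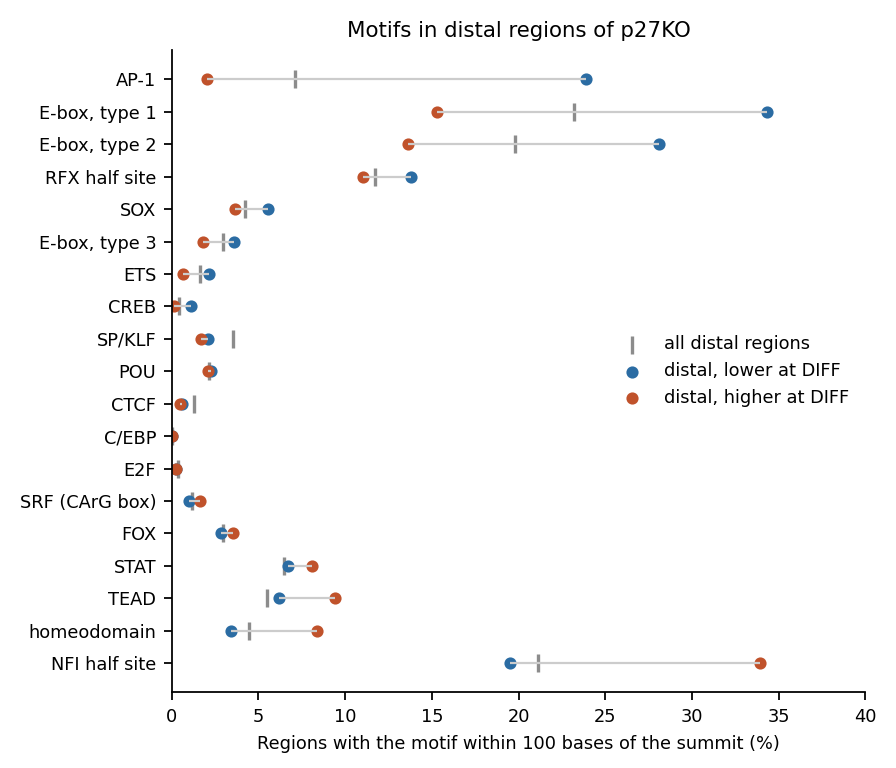
Percent of distal regions with a motif within 100 bases of the summit (x axis) for each motif (y axis), in regions that fell, all distal regions and regions that rose at DIFF in p27KO. Of the E-boxes, type 1 is CAGCTG, type 2 is CAGATG and type 3 is CATATG. AP-1 stands at 23.9% in falls and 2.01% in rises, and the NFI motif at 19.5% and 33.9%.

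The other motifs differed by fewer percentage points between falls and rises than these 6, although as a ratio the cyclic AMP and ETS motifs stood further apart than the E-boxes above. The cyclic AMP response element TGACGTCA was in 1.11% of falls, 0.433% of all distal regions and 0.110% of rises, and the ETS motif CCGGAAG, bound by factors downstream of ERK, in 2.14%, 1.63% and 0.641%. The SOX motif ACAATGG was in 5.53%, 4.24% and 3.64%. The motif of CTCF, GCAGGGGGC, was less frequent in both falls (0.574%) and rises (0.458%) than in all distal regions (1.28%), and the SP/KLF motif GGGCGGG likewise (2.10%, 1.70% and 3.56%). The latter can overlap the E2F motif GGCGGGAA, which was in 0.229% of falls, 0.361% of all and 0.238% of rises. The STAT motif was in 6.69%, 6.47% and 8.09%, the RFX motif in 13.8%, 11.7% and 11%, the E-box CATATG in 3.58%, 2.93% and 1.79%, and the forkhead motif TGTTTAC in 2.85%, 2.98% and 3.53%. The SRF CArG box was in 1.01%, 1.16% and 1.61% and the POU motif ATGCAAAT in 2.29%, 2.17% and 2.07%. The C/EBP motif TTGCGCAA was in 16 distal regions.

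At promoters, the fixed genes of this cell type moved little. Sox2, a transcription factor of stem cells, stood at percentiles 77.0 and 76.5 in PRO and 88.8 and 78.7 in DIFF (change 0.28 ± 0.25 (SE), limma adjusted p = 0.517). Olig2, of the oligodendrocyte lineage, stood at 55.9 and 61.6 in PRO and 66.5 and 62.5 in DIFF (0.15 ± 0.20, adjusted p = 0.676). The EGF receptor gene Egfr stood at 80.2 and 81.7 in PRO and 79.1 and 65.8 in DIFF (−0.27 ± 0.22, adjusted p = 0.471). Mki67, the proliferation antigen Ki67, stood at 87.8 and 86.4 in PRO and 94.7 and 94.0 in DIFF (0.45 ± 0.22, adjusted p = 0.210). The glial filament gene Gfap stood at 76.0 and 75.1 in PRO and 85.6 and 78.4 in DIFF (0.23 ± 0.21, adjusted p = 0.533). The PRO and DIFF values of these 5 promoters did not overlap, as in 27.7% of all regions on the lower side and 28.7% on the higher, and none of the differences passed the test.

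The largest falls near start sites were at Gm17677, Anapc15-ps, Lypla2, Ston2, Lats2, Tmcc3, Gm10775 and Mpp4, with changes from −2.43 to −2.0. The Gm17677 region (chr9:35740428-35741341) had fold enrichments of 19.6 and 15.4 in PRO and 4.08 and 3.69 in DIFF, a change of −2.43 ± 0.28 (limma adjusted p = 0.000556). It was the only one of these 8 with a peak in each library, and its PRO values were several times its DIFF values. Lats2, a kinase of the Hippo pathway that restrains YAP, had a region 2.04 kb from its start site (chr14:57736248-57736762). It was at percentiles 79.4 and 82.9 in PRO and had no peak in either DIFF list (−2.08 ± 0.23, limma adjusted p = 0.000469). Of the 8 regions nearest Lats2, 1 fell and 2 rose. Ston2 encodes an adaptor of synaptic vesicle endocytosis and Lypla2 a thioesterase that removes palmitate, and both also had peaks at PRO only.

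The largest rises near start sites were at Sv2b, Spire2, Tspan18, Lonp2, Zscan18, Pax4, S100a3 and Mylk, from 2.71 to 2.02, and none of these 8 had a PRO peak. Sv2b, a synaptic vesicle glycoprotein, had a region 0.950 kb from its start site (chr7:75220720-75221450) at percentiles 87.7 and 82.4 in DIFF (2.71 ± 0.33, limma adjusted p = 0.000707). Tspan18, a tetraspanin of the cell surface, was at 77.6 and 75.9 in DIFF (2.40 ± 0.20, adjusted p = 0.000208). Mylk, the kinase that phosphorylates myosin light chain, was at 68.8 and 59.1 (2.02 ± 0.27, adjusted p = 0.00108). All 16 of these promoter regions moved the same way in WT, where the changes ranged from −2.41 to −0.95 and from 1.37 to 2.21.

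Among distal regions, the 6 largest falls were narrow regions of telomeric repeat, described with the WT comparison. Outside these, a region 14.3 kb from 4931440F15Rik (chr11:29839714-29840354) was chosen after its values had been seen. It had the largest fall among distal regions of at least 150 bp without the repeat, with chromosome 18 left out. Its fold enrichments were 19.9 and 20.1 in PRO with no DIFF peak, a change of −3.75 ± 0.23 (limma adjusted p = 2.1e-05), and the WT change was −3.67. Its window, printed above, holds AP-1 and a pair of TEAD matches. The Il34 region (chr8:110815355-110815715) lay 9.62 kb upstream of the start site of this ligand of the CSF1 receptor. It held AP-1 and had 15.6 and 20.9 in PRO with no DIFF peak (−3.37 ± 0.33, limma adjusted p = 0.000333). It too was named after its values were seen. A region nearest Grm3 (chr5:9921320-9921738), named in the same way, fell by more than the Il34 region. It had fold enrichments of 17.6 and 19.6 in PRO and no DIFF peak (−3.47 ± 0.31, limma adjusted p = 0.000244). Its window held none of the motifs searched.

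The largest distal rises were nearest Cavin4, Cep85l, Ifit3, Slc39a10, Dpyd and Ppp1r17, from 3.24 to 2.96, and none had a PRO peak. The region 179.3 kb from Cavin4, a coat protein of caveolae, reached fold enrichments of 14.4 and 14.6 in DIFF, percentiles 95.7 and 92.3 (3.24 ± 0.25, limma adjusted p = 0.000176). The region 65.1 kb from Cep85l, which encodes a centrosomal protein, reached 12.2 and 16.1 (3.17 ± 0.21, adjusted p = 5e-05). Regions without a peak in PRO thus ranked near the top of the DIFF libraries. The WT changes at these 6 were 2.49, 2.34, 2.75, 2.13, 2.39 and 2.09.

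Of the regions, 61053 were assigned to 16602 genes by the nearest start site within 100 kb, which says nothing of regulation. A fall was assigned to 3080 genes, a rise to 3193 and both to 1009. The background for the gene lists below was 6.35% of assigned regions lower and 6.77% higher. With a peak in all 4 lists it was 969 lower and 1066 higher of 37637, and for the promoter counts of the lists 166 lower and 248 higher of 14539. The genes with most falls and few rises were Arnt2, with 5 of 15 regions, Arhgap26 with 5 of 15 and Nrxn3 with 5 of 33. Arnt2 is a partner of basic helix-loop-helix PAS factors, Arhgap26 a GTPase-activating protein and Nrxn3 a presynaptic adhesion protein. Next came Sik3, Pde4d, Dock10, Bach2, Kcnip1, Flt1 and Synj2, with 4 each of 11 to 37 regions. The genes with most rises and few falls were Aqp4, with 5 of 11 regions, Gadd45a, with 5 of 16, and Foxp1, with 5 of 22. They were followed by Cdc42ep3, Nhsl1, Sipa1l3, Oxr1, Ptprd, Shroom3 and Smad6 with 5 each of 9 to 25 regions. Aqp4 is the water channel of astrocyte endfeet, Gadd45a a stress gene of growth arrest and Foxp1 a forkhead repressor. Genes with more regions had more chances, so each count stands beside the number tested. Where each of the 4 lists had a peak, Aqp4, Gadd45a, Foxp1 and Ptprd had 0 rises and Sik3 and Pde4d 0 falls. The other genes named here had 1 to 3 such calls in their direction.

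The mitogen and ERK list showed few calls. Of 145 regions of 23 genes, 7 fell (4.83%) and 6 rose (4.14%), both under the background, and none of the 23 promoters passed. Phlda1, an early target of ERK, had a region 10.2 kb away (chr10:111516239-111516788) with fold enrichments of 7.68 and 8.58 in PRO and no DIFF peak (−1.68 ± 0.22, limma adjusted p = 0.000909). Its window holds AP-1. Spry1, a feedback inhibitor of receptor tyrosine kinases, had a region 34.1 kb away with 7.97 and 8.56 in PRO and no DIFF peak (−1.69 ± 0.21, adjusted p = 0.000701). In WT the Spry1 region changed by −0.48 (limma adjusted p = 0.0814). Phlda1 had 2 falls among 9 regions in all and Spry1 1 among 8. Fgfr3, an FGF receptor gene, had 2 rises among 6. The strongest Fgfr3 call was lost without PRO 1 (0.98) or DIFF 1 (0.83). The AP-1 family genes themselves had 1 fall and 2 rises among 58 regions and 0 of 10 promoters called. These were at Atf3, which fell, and Fosl2 and Jun, which rose, and each call was lost in at least 1 fit with a p27KO library left out. That at Jun was lost without any 1 of the p27KO libraries, with changes of 0.83 to 1.05 (limma adjusted p = 0.0612 to 0.135), that at Atf3 without PRO 1 (−1.22, adjusted p = 0.0645) or DIFF 2 (−1.24, 0.0640), and that at Fosl2 without PRO 1, DIFF 1 or DIFF 2 (0.66 to 1.41, adjusted p = 0.111 to 0.273).

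Cell cycle genes had shares of falls near or under the background. G1 and S phase genes had 3 falls (2.65%) and 5 rises among 113 regions, DNA replication genes 4 (6.35%) and 5 among 63, and mitosis genes 1 (1.75%) and 9 among 57. The mitosis share of 15.8% higher stood beside 6.77% for all assigned regions, and 7 of its genes held the rises. With a peak in all 4 lists the mitosis counts were 0 falls and 2 rises of 39. None of the 24 mitosis promoters and none of the 23 G1 and S promoters passed, and of the 25 replication promoters 3 did. Prim1, a primase subunit, fell from percentiles 81.8 and 86.5 to 49.9 and 56.8 (−0.92, limma adjusted p = 0.0226). Rrm1, a ribonucleotide reductase subunit, and Uhrf1, which maintains DNA methylation, rose by 0.89 and 0.67 (adjusted p = 0.0345 and 0.0392). These promoters were named after their values were seen, since so few passed. Rrm1 had 1 fall beside 1 rise among 6 regions, and the fall was lost without any 1 p27KO library (−1.04 to −1.21). A region 26.2 kb from Cdk1, the kinase that drives mitosis (chr10:69326458-69327011), had percentiles 27.2 and 27.7 in PRO and 92.3 and 96.8 in DIFF. Its fold enrichments were 4.07 and 3.92 in PRO against 12.7 and 17.2 in DIFF (2.24 ± 0.22, limma adjusted p = 0.000345), and WT changed by 2.07. It had a peak in every library. It was among the 3 largest rises of distal regions of at least 150 bp with a peak in all 4 lists, with chromosome 18 left out. A region 86.6 kb from Mki67 (chr7:135802789-135803501) had no PRO peak and fold enrichments of 9.43 and 5.96 in DIFF (2.19 ± 0.27, adjusted p = 0.000688). Both windows hold the NFI motif. Of the G1 and S list, E2f3 had 2 falls among 5 regions, Ccnd1 2 rises among 11 and Myb 1 rise among 4. The strongest call at E2f3 was lost without PRO 2 or DIFF 1, and that at Myb without any 1 p27KO library. At Ccnd1, cyclin D1, a weak intronic region rose by 0.89 ± 0.24 (adjusted p = 0.0281), which was lost without any 1 p27KO library (0.85 to 0.93, adjusted p = 0.0959 to 0.115).

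**Figure D3:**
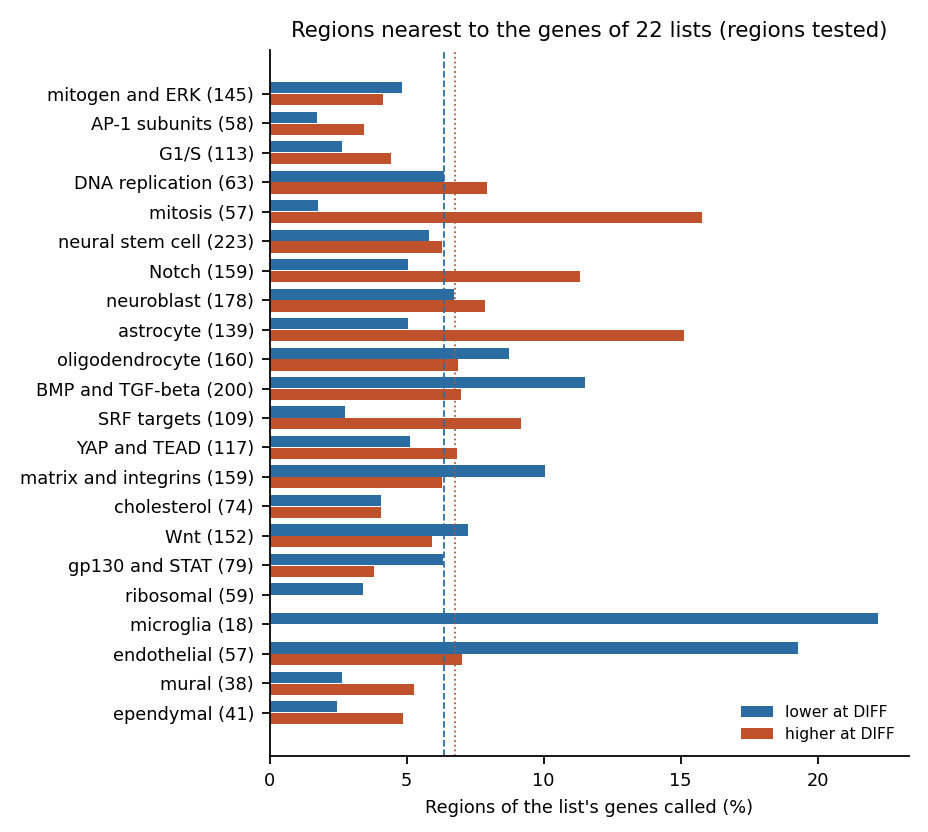
Percent of the regions of each of 22 gene lists that fell or rose at DIFF in p27KO (x axis), with lines at the shares of all assigned regions, 6.35% lower and 6.77% higher. Mitosis (15.8%) and astrocyte (15.1%) genes stand to the right for rises, and BMP and TGF-beta (11.5%) and matrix (10.1%) genes for falls, as do endothelial (19.3%, 57 regions) and microglia (22.2%, 18 regions) genes.

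Stem and progenitor cell genes were near the background, with 13 falls and 14 rises among 223 regions and 0 of 25 promoters called. Nfib, a nuclear factor I gene, had an intronic region 69.4 kb from its start site (chr4:82435429-82436287) at percentiles 97.2 and 97.3 in PRO and 53.0 and 55.6 in DIFF (−1.81 ± 0.22, limma adjusted p = 0.000668). It had a peak in each library and its window holds AP-1. Lhx2, a LIM homeobox factor, had a region 62.0 kb away that was at 74.6 and 77.9 in PRO and without a peak in DIFF (−1.92 ± 0.33, adjusted p = 0.00358). In the opposite direction, a region 35.9 kb from Sox9, a factor of stem cells and glia, was at 3.87 and 16.6 in PRO and 55.9 and 63.2 in DIFF (1.61 ± 0.28, adjusted p = 0.00354). In WT the Sox9 region changed by −0.18, and the interaction with genotype did not pass. Nfib, Lhx2 and Sox9 each had 1 fall and 2 rises, among 20, 10 and 8 regions.

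Notch pathway genes had 8 falls and 18 rises (11.3%) among 159 regions, with 2 and 6 among the 93 regions that had a peak in all 4 lists. None of the 21 promoters in the set passed. Maml2, a coactivator of the Notch transcription complex, had 4 rises and 3 falls among 25 regions. Its strongest, 17.9 kb upstream of the start site (chr9:13603485-13604087), had no PRO peak and fold enrichments of 9.83 and 10.4 in DIFF (2.58 ± 0.26, limma adjusted p = 0.000348). Hes1, the repressor induced by Notch, had 2 rises among 14 regions, and the strongest was at 31.5 and 63.2 in DIFF without a PRO peak (1.59 ± 0.26, adjusted p = 0.0028). The ligand gene Dll1 had 2 falls and 2 rises among 12 regions. Its strongest fall, 83.2 kb away, was at 84.7 and 73.4 in PRO without a DIFF peak (−2.02 ± 0.32, adjusted p = 0.00227).

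Astrocyte genes had 7 falls and 21 rises (15.1%) among 139 regions, and 2 of 19 promoters rose. These were Aldoc, the brain aldolase (1.33, limma adjusted p = 0.00273), and Apoe, the apolipoprotein secreted by astrocytes (0.93, adjusted p = 0.0477), both named after their values were seen. With a peak in all 4 lists the counts were 1 and 5 of 83 regions. Aqp4 held 5 of the 21 rises, none of them in a region with a peak in all 4 lists. Its strongest, 10.5 kb away, had no PRO peak and fold enrichments of 9.17 and 11.9 in DIFF (2.63 ± 0.25, limma adjusted p = 0.000284). Slc1a2, the glutamate transporter GLT-1, had 3 rises among 9 regions, the strongest at percentiles 53.0 and 42.5 in DIFF without a PRO peak (1.61 ± 0.22, adjusted p = 0.00114). Aldoc and Atp1b2, a sodium pump subunit of glia also named after its count was seen, had 2 rises each, among 4 and 3 regions. At the other end, and named in the same way, the transporter gene Slc1a3 had 0 calls among 20 regions, and Tnc, the matrix protein tenascin-C, had 4 falls and 2 rises among 12. The strongest Tnc fall, 37.0 kb away (chr4:64083701-64084387), had fold enrichments of 11.7 and 15.6 in PRO and no DIFF peak (−2.54 ± 0.30, adjusted p = 0.000576).

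Neuroblast and neuron genes had 12 falls and 14 rises among 178 regions, and 1 of 26 promoters rose. It belonged to Elavl3, a neuronal RNA-binding protein, and was named after its value was seen (1.13, limma adjusted p = 0.0168). A region 4.58 kb from Map2, the dendritic microtubule protein, was at 63.2 and 50.7 in DIFF without a PRO peak (1.84 ± 0.29, limma adjusted p = 0.00216). Insm1, a zinc finger factor of dividing neuronal progenitors, had a region 80.6 kb away at 99.6 and 99.7 in PRO and 88.3 and 93.5 in DIFF (−1.34 ± 0.21, adjusted p = 0.00194). It remained a strong peak in all 4 lists. Oligodendrocyte genes had 14 falls and 11 rises among 160 regions and 0 of 17 promoters called. Opalin, a myelin protein, had a region at 21.2 and 5.91 in PRO and 83.3 and 77.3 in DIFF (2.04 ± 0.27, adjusted p = 0.000972). Tcf7l2, a Wnt effector used by maturing oligodendrocytes, had one at 3.87 and 14.1 in PRO and 65.2 and 70.2 in DIFF (1.88 ± 0.24, adjusted p = 0.000838). Both regions rose, but Opalin had 1 fall beside 3 rises among 11 regions, and Tcf7l2 2 falls and 2 rises among 15. Enpp6, of the same list, had 3 falls and 0 rises among 6. Its strongest call was lost without PRO 1, PRO 2 or DIFF 1 (changes of −1.17, −1.39 and −0.96).

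**Figure D4:**
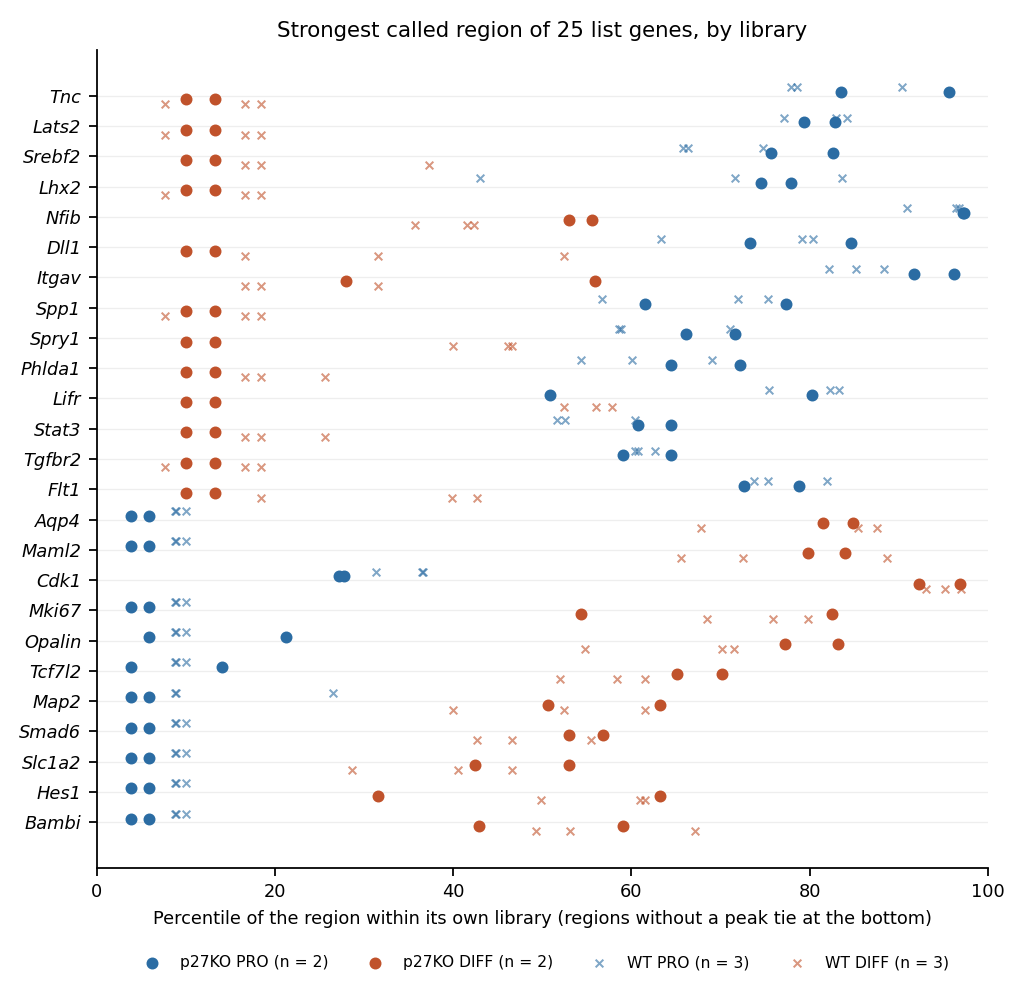
Percentile of the strongest called region of 25 listed genes (x axis, 0 to 100) in the p27KO libraries (dots, n = 2 per condition) and WT libraries (crosses, n = 3 per condition), PRO and DIFF in separate colours. In each p27KO region the PRO and DIFF dots lie apart, and libraries without a peak sit together at the low end, where ties for list length lie between 3.87 and 18.4.

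BMP and TGF-beta genes had more falls than rises, with 23 (11.5%) and 14 rises among 200 regions, spread over 15 and 6 genes. With a peak in all 4 lists the counts were 3 and 4 of 113, and 0 of 29 promoters passed. Other members were named after their counts were seen. Falls lay at 3 of 16 regions of Bmpr1b, a type I BMP receptor, and 2 of 10 of Bmp7, a ligand. They also lay at 2 of 7 regions of the target Id3 and 2 of 9 of Smad7, an inhibitory SMAD. Receptors and ligands differed among themselves. Bmpr2 had 2 falls and Bmp2 1 among 8 regions each, and Bmpr1a 1 fall and 1 rise among 7. Acvr1, Acvr2a, Bmp4 and Bmp6 had 0 falls among 4, 2, 2 and 6 regions. Tgfbr2, the type II TGF-beta receptor, had 2 falls and 2 rises among 9. Its strongest was at 59.0 and 64.5 in PRO and without a DIFF peak (−1.50 ± 0.22, limma adjusted p = 0.00164). The list's genes with most rises were Smad6 and Bambi. Both encode inhibitors of the pathway, but the list's inhibitors did not move together, since Smad7 had falls only and Nog, a secreted BMP antagonist also named after its counts were seen, had 1 fall and 1 rise among 6 regions. Smad6 had 5 rises among 15 regions, the strongest with fold enrichments of 4.84 and 6.25 in DIFF and no PRO peak (1.79 ± 0.20, adjusted p = 0.000486). Bambi had 3 rises and 1 fall among 8, the strongest with 4.08 and 6.53 in DIFF only (1.69 ± 0.23, adjusted p = 0.0011).

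Integrin, laminin, collagen and matrix genes had 16 falls (10.1%) and 10 rises among 159 regions, with 4 and 3 of the 90 that had a peak in all 4 lists. Spp1, the secreted phosphoprotein osteopontin, was the only promoter of 25 to pass. It was at 61.5 and 77.3 in PRO and without a DIFF peak (−1.72 ± 0.27, limma adjusted p = 0.00202). A region 9.46 kb from Itgav, integrin alpha V, was at 91.7 and 96.2 in PRO and 55.9 and 27.9 in DIFF (−1.80 ± 0.28, adjusted p = 0.0021), with a peak in all 4 lists and an AP-1 match. The change of substrate cannot be told apart from the loss of mitogens at these genes. Serum response and actin genes had 3 falls and 10 rises (9.17%) among 109 regions. A region 60.1 kb from Egr3, an immediate early gene, rose by 1.23 ± 0.24 (limma adjusted p = 0.00619). A region 14.2 kb from Actb, beta-actin, fell (−1.32 ± 0.23, adjusted p = 0.00379). Egr3 had 0 falls and 2 rises among 9 regions, Actb 1 and 1 among 6, and Itgav 1 and 1 among 10. YAP and TEAD pathway genes had 6 falls and 8 rises among 117 regions, with 0 of 16 promoters called. The region nearest the start site stands for a gene's promoter in these lists, and the Lats2 region above was not the nearest.

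Wnt pathway genes had 11 falls and 9 rises among 152 regions, gp130 and STAT3 genes 5 and 3 among 79, and cholesterol and fatty acid genes 3 and 3 among 74. Lifr, the LIF receptor, had a region at 50.9 and 80.3 in PRO without a DIFF peak (−1.64 ± 0.26, limma adjusted p = 0.00243), and Stat3 one at 60.7 and 64.5 (−1.52 ± 0.20, adjusted p = 0.00105). Srebf2, the main regulator of cholesterol synthesis, had one at 82.6 and 75.6 in PRO without a DIFF peak (−2.02 ± 0.25, adjusted p = 0.00074). Ribosomal protein genes, whose promoters are open in most cells, had 2 falls and 0 rises among 59 regions and 0 of 23 promoters called.

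Markers of endothelial cells and microglia, which the cultures could hold besides neural cells, had shares of falls above the 6.35% of all assigned regions. Endothelial genes had 11 falls (19.3%) and 4 rises among 57 regions, at 6 and 4 of the 11 genes. With a peak in all 4 lists the counts were 2 and 2 of 29, and 0 of 3 promoters passed. Microglia genes had 4 falls (22.2%) and 0 rises among 18 regions, at 3 of 10 genes, with 1 and 0 of 7 where each list had a peak. Of 4 microglia promoters 2 fell, both named after their values were seen. These were P2ry12, a purine receptor (−0.77, limma adjusted p = 0.0317), and Tmem119, a membrane protein (−0.95, adjusted p = 0.0453). The call at Tmem119 was lost without PRO 1 (−0.62) or DIFF 1 (−0.58). It was also lost with lists cut to 57000 peaks (−0.99, limma adjusted p = 0.0523). Csf1r had 1 fall among 2 regions, and that call was lost without PRO 2, DIFF 1 or DIFF 2 (−0.76, −0.81 and −1.12). Mural cell genes had 1 and 2 among 38, and ependymal genes 1 and 2 among 41. Promoter peaks were at 3 of 11 endothelial genes in each p27KO library and at 4 and 3 of 10 microglia genes in PRO and 3 and 4 in DIFF. The median percentile of the endothelial promoters was 72.7 and 79.8 in PRO and 67.1 and 74.9 in DIFF, and that of the microglia promoters 61.6 and 40.1 in PRO and 48.8 and 44.3 in DIFF. Flt1, a VEGF receptor, had 4 falls among 13 regions, the strongest at 72.6 and 78.9 in PRO without a DIFF peak (−1.90 ± 0.26, limma adjusted p = 0.00112). Tek, the angiopoietin receptor, had an intronic region at 97.1 and 99.0 in PRO and 65.2 and 56.8 in DIFF (−1.83 ± 0.24, adjusted p = 0.001). No consensus region lay at the promoters of Pecam1, Cdh5, Cldn5, Tek, Vwf, Emcn, Esam and Tie1 among endothelial markers, or of Cx3cr1, C1qa, C1qb, Ptprc, Itgam and Spi1 among microglia markers. The part of such cells in the falls was not tested.

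WT cells showed the same directions at most of these regions. Of the 5512 regions that fell in p27KO, 95.5% had the same sign in WT and 3976 (72.1%) also fell there, against 8.71% of all regions. Of the 5909 that rose, 97.4% had the same sign and 3674 (62.2%) also rose, against 7.68%. A region without any WT peak had a WT change of 0.23 from the ties alone, so its sign was fixed. This applied to 104 of the falls, counted as different in sign, and 190 of the rises, counted as the same. The median change of the falls was −1.20 in p27KO and −0.95 in WT, and of the rises 1.33 and 0.89. The regions were chosen for their p27KO change and for a p27KO peak, so a smaller WT change says nothing of a difference. A difference was tested by the interaction of genotype and condition. That test also ran over regions that entered for their p27KO peaks, so regions with peaks in WT lists only were not in it. The interaction passed at 22 regions (0.028%), while 4592 (5.85%) were under 0.05 before adjustment. When the regions with a peak in all 4 lists were ranked and fitted on their own, none of 46175 passed (limma, 2040 under 0.05 before adjustment). When the regions of at least 150 bp were, a limit chosen after seeing the data, none of 73260 passed (limma, 4043 before adjustment). With windows around the summits in place of merged peaks, 55 passed.

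**Figure D5:**
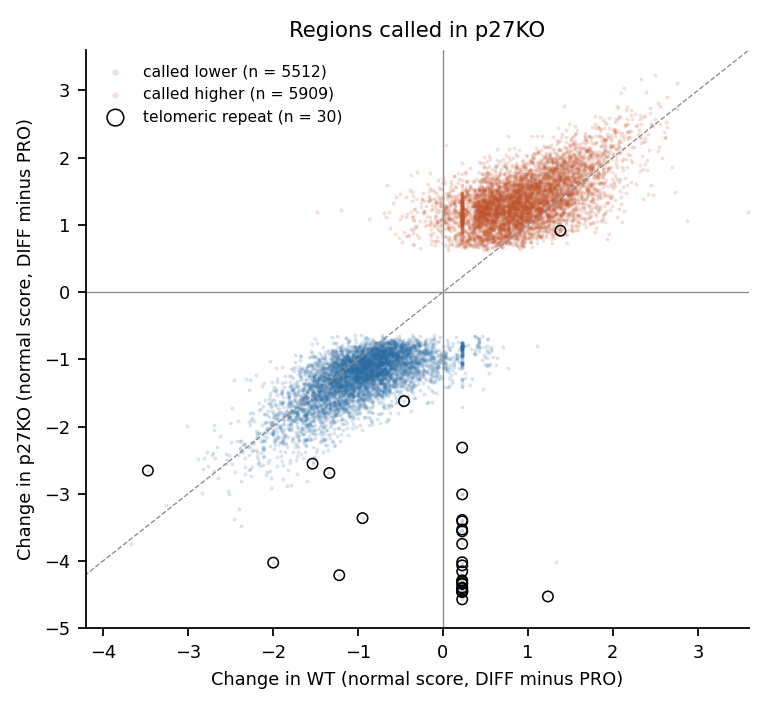
Change at DIFF against PRO in WT (x axis) and in p27KO (y axis), in normal score units, for the 11421 regions called in p27KO. Circles mark the 30 called regions with the telomeric repeat, of which 29 fell, 21 of them in the column at 0.23 that holds regions without any WT peak. Of the falls 95.5% and of the rises 97.4% have the same sign in WT.

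The regions that passed the interaction were of an unusual kind. Of the 22, 19 fell in p27KO, all 81 to 129 bp wide, and 18 of these held at least 5 copies of the telomeric repeat unit within 100 bases of the summit. These 18 had a peak in both p27KO PRO lists, at fold enrichments of 15.1 to 46.0, and in none of the other 8 lists. They thus entered the test only through the lists where they were high, and the test does not allow for that. Their changes in p27KO ran from −3.39 to −4.57, with a median of −4.32.

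Over the 99 regions with the repeat, p27KO PRO lists had peaks at 98 and 99, p27KO DIFF lists at 72 and 62, WT PRO lists at 62, 57 and 72 and WT DIFF lists at 56, 56 and 66. In all, 29 fell (29.3%) and 1 rose. Each library thus had peaks at most of these regions, and the p27KO PRO lists at nearly all. Short reads from such repeats can map to many places, and the sources used here name no filter for this. The shortest peak in a list was 73 and 81 bp in p27KO PRO, 81 and 88 in p27KO DIFF, 90, 95 and 87 in WT PRO and 95, 92 and 82 in WT DIFF. The shortest peak thus differed between libraries in part as the result did, and its part in it was not tested. Without the repeat, the Itga9 region, 36.7 kb from the start site of integrin alpha 9, 112 bp wide, fell by 2.99 on the normal score scale in p27KO with no WT peak. Regions without any WT peak made up 104 of the falls (1.89%) and 190 of the rises (3.22%), against 2173 (2.77%) of all regions.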

How the data were processed

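ATAC-seq peak lists of 10 libraries were used, and the members, gene lists and motifs were chosen with earlier results of these data known. The authors clipped adapters with Cutadapt and Trimmomatic, mapped reads with Bowtie2 to GRCm38 and marked duplicates with Picard. MACS2 then called narrow peaks in each library, with its model off and a false discovery rate of 0.05, and replicates were not pooled. Versions, read shift and extension are not given in the sources used here. The deposited fold enrichment is the ratio of summit pileup to local background within a library. Each deposited peak also has a −log10 p-value and a −log10 q-value, used here for alternatives.

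Autosomal peaks of the 4 p27KO lists were merged at an overlap of at least 1 bp and kept with a peak in at least 2 lists. Scores were fitted with limma 3.58.1 in R 4.3.3 over all 10 libraries, with 1 mean per group, a shared spread and Benjamini-Hochberg adjustment. Regions entered for their p27KO peaks, so WT values are descriptive. The interaction was tested over the same regions, and a region with peaks in WT lists only could not enter it. Sex chromosomes were left out. The study's read-based DiffBind test needs alignments, which were not used here. Genes are from GENCODE M21, while the authors used M18. Library measures were compared by exact permutation. Scripts used Python 3.11.15, numpy 2.4.6, pandas 2.3.3 and scipy 1.17.1.

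Named were Sox2, Olig2, Mki67, Egfr, Gfap and Cdkn1b, the 8 promoter regions with the largest change each way, the 6 such distal regions, the regions past the interaction test, the 10 genes each way with most called regions and at least 80% of them in one direction, and in each list up to 3 genes with most called regions, with their strongest one. Not every list gene picked by this rule is described. Other names are marked as chosen after their values were seen, apart from the markers listed as lacking a promoter region. One further gene and the sequences of the repeat regions are not reported here. The depth is unknown, so no interval was computed. The labels call replicates biological without naming animals, so p-values measure the spread between these cultures. Deviations from the group mean in PRO and DIFF libraries of the same replicate number correlated at −0.156 in p27KO and 0.0282 to 0.0519 in WT. With 2 libraries a condition the p27KO value is the same for both numbers, so it cannot decide whether the cultures were paired. The main fit used no pairing.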

Additional observations from a re-analysis of the deposited data

Results flagged for a closer look

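The change at DIFF differed between p27KO and WT at 22 regions, by the interaction of genotype and condition in limma. All regions tested had entered for their p27KO peaks. Over the 18 that held the telomeric repeat, the median difference between the p27KO and WT changes was −4.54. A further region without the repeat, 36.7 kb from Itga9, differed by −3.22 (adjusted p = 0.00755).

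At 3 promoter regions WT fell where p27KO did not pass the test, and p27KO was already low at PRO. Fold enrichments at Crem were 3.42 and no peak in p27KO PRO, against 15.5, 15.1 and 14.4 in WT PRO. At Elf2 they were 3.03 and 2.97 against 13.9, 14.0 and 11.6. At Ndufaf4 they were 3.39 and 3.09 against 13.8, 12.4 and 11.6. At Crem, a cyclic AMP responsive factor, the change was 0.28 in p27KO and −2.93 in WT, a difference of 3.21 (limma adjusted p = 0.00668). At Elf2, an ETS factor, it was −0.06 and −2.55, a difference of 2.48 (adjusted p = 0.0259). At Ndufaf4, an assembly factor of respiratory complex I, it was 0.69 and −1.74, a difference of 2.43 (adjusted p = 0.0102). The Crem and Elf2 regions were 129 bp wide, and that at Ndufaf4 370 bp. In the fit to regions of at least 150 bp, which holds the Ndufaf4 region, no interaction passed, so that call was lost there, while its change in p27KO passed (0.69, limma adjusted p = 0.047).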

How the results depend on the processing

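The number of reads is unknown, and 2 libraries a condition set the precision. Every count moved with the set of libraries and with list length, as given here, and the causes were not tested.

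Leaving out a p27KO library gave 2478 to 3495 falls and 3123 to 4159 rises, 126 to 177 and 186 to 248 at promoters and 2352 to 3332 and 2937 to 3911 at distal regions, and 16 to 21 interaction calls. Presence counts, which fewer libraries then had to meet, were 10762 to 17212 closed and 3272 to 5621 opened. Leaving out a WT library gave 5105 to 5720 falls, 5579 to 5849 rises, 256 to 289 and 384 to 464 at promoters, 4838 to 5431 and 5195 to 5385 at distal regions, and 19 to 23 interaction calls. Of 103 named calls, 80 were kept without each p27KO library.

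With a refit to regions with a peak in all 4 lists, 1866 fell and 1339 rose (58.2% lower), 126 and 134 at promoters and 1740 and 1205 at distal regions, with 0 interaction calls (limma, 2040 under 0.05 before adjustment). Ranking by −log10 p gave 434 promoter falls against 409 rises, and 14 interaction calls. Lists cut to their 57000 strongest peaks gave 5710 falls and 5206 rises, 5084 closed regions and a promoter share that differed by −0.283 points. Summit windows gave 55 interaction calls, the 4 p27KO libraries alone 292 promoter rises, and regions of at least 150 bp, added after seeing the data, 0 interaction calls (limma, 4043 before adjustment). With the replicate block 4589 regions fell and 5242 rose, and with the crossed replicate block, added after seeing the data, 5454 and 5858. A window of 250 bases each side kept the direction of 17 of 19 motifs, CTCF and E2F excepted.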
